A study of Mus musculus with 8 samples.

Results

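The secondary induced pluripotent stem cell (iPSC) line S8, made from epidermal cells of abdominal skin, was set against line T2, made from the lining of the glandular stomach. The members were the libraries labelled S8 and T2, 2 of the 8 RNA-seq libraries of the series, and the comparison covered the 12591 of 22878 gene entries that reached an FPKM of 1 in S8 or in T2. Both lines came from somatic cells of adult all-iPSC mice that carry doxycycline-inducible Oct4, Sox2, c-Myc and Klf4, and doxycycline was withdrawn before colonies were picked. All lines were grown with leukemia inhibitory factor on feeder layers of mouse embryonic fibroblasts. The other 6 libraries, used here for context, are pairs of replicates of the embryonic stem cell (ESC) line R1 and of the secondary iPSC lines 16-6, from hematopoietic cells, and 32, from adipocyte progenitors. The labels name the cell line of each library and give embryo as its tissue, so the origin of S8 and T2 is known from the study's description only. Each origin is represented by 1 line and 1 library, so origin, clone, culture and library cannot be told apart.

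Reprogramming returns a differentiated cell to a state that resembles the inner cells of the early embryo. It is held there by a network of transcription factors around Oct4, Sox2 and Nanog and, in mouse cells, by LIF acting through STAT3. Epidermis arises from the ectoderm and is built of keratinocytes joined by desmosomes, whereas the gastric lining arises from the endoderm and is a simple epithelium that secretes acid, mucus and pepsinogen. Genes of the parental tissue that stay active after reprogramming are often called a somatic memory, and the study asked whether expression of this kind remained in its secondary lines.

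Expression is given as FPKM, a count of fragments scaled to transcript length and to the size of the library, after division by 1 constant common to all libraries. Differences are S8 minus T2 in log2(FPKM + 1), a scale that understates the change of low genes. With 1 library a line there was no test, and a gene was called only where this difference reached 1 in size and the 2 confidence intervals of FPKM in the files did not overlap. Those intervals hold the uncertainty of counting and assigning reads and none of the variation between cultures. The fragments behind the values, implied by the width of the intervals, came to 16503600 in S8 and 16680800 in T2, against 15479700 to 16386000 in the other libraries. These are not sequencing depths, since the study's mapping summary lists more uniquely mapped reads for S8 and T2 than for the others. Implied fragments take counting as the only uncertainty, so they run low for genes whose intervals are widened by uncertain assignment of reads.

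Between S8 and T2, 332 genes (2.64%) were called, 102 higher in S8 (0.81%) and 230 lower in S8 (1.83%). Applied to replicate pairs, the rule called 9 genes for R1 (0.0693%), 4 for 16-6 (0.0317%) and 21 for 32 (0.174%). A gene could enter through the library in which it was high. Of the 332 differences, 330 were larger than the largest difference of that gene between replicates, which also held for 69.4% of all genes tested. The called genes rested on a median of 143 implied fragments in the lower library and 395 in the higher one. The balance of the directions moved with the scaling, from 102 higher and 230 lower to 128 and 189 after quantile normalization and to 36 and 501 when both libraries were set to the same total. The median of all genes tested was 0.05, and it moved to 0.03 and -0.18 under these scalings. The 2.64% called over all genes tested is the share to set beside the calls of each gene list below. A count of 0 or 1 in a small list is near it.

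**Figure D1:**
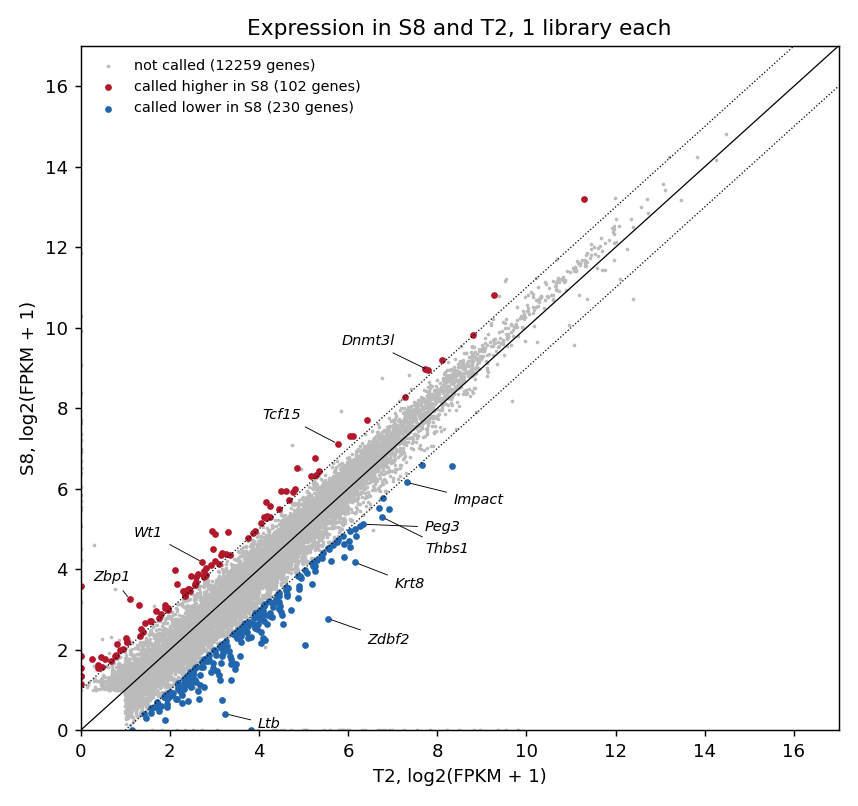
Each point is 1 of the 12591 genes tested, with its log2(FPKM + 1) in T2 on the horizontal axis and in S8 on the vertical axis, the solid line marking equal values and the dotted lines a difference of 1. The 102 genes called higher in S8 lie above the upper dotted line and the 230 called lower lie below the lower one, with Ltb and Zdbf2 among those farthest from equality.

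The difference between S8 and T2 moved with transcript length. Among the 12044 genes matched to an annotated coding transcript, Spearman's rho across genes was -0.60 with transcript length and 0.39 with GC content. The genes share both libraries, so these values are descriptions and carry no p. In the decile of genes with the shortest transcripts (median 910 bases) the median difference was 0.40, with 39 genes called higher and 3 lower. In the decile with the longest (median 7646 bases) it was -0.49, with 1 gene called higher and 105 lower. Against each of the other 6 libraries, the rho with length was -0.40 to -0.36 for S8 and -0.07 to 0.03 for T2, and it was -0.12 to 0.08 between replicates. With GC content it was 0.31 to 0.49 for S8, 0.11 to 0.29 for T2 and -0.10 to 0.11 between replicates. The dependence on length therefore appeared in the comparisons that include S8, whereas that on GC content was seen for both lines, with higher values for S8. The part that it plays in single genes was not tested.

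For this reason each difference is also given after the median of genes of like length and GC content was subtracted, called the length-adjusted difference below. This lowered the number of genes called to 142 of 12044 (1.18%), of which 34 were higher and 108 lower in S8. Only the size of the difference was adjusted here, and the intervals were those of the unadjusted FPKM. Of the 332 genes, 314 could be adjusted and 108 of them were called both ways, 26 higher and 82 lower. The median transcript of the genes called higher was 1397 bases long and that of the genes called lower 5984 bases, against 2971.5 for all genes. After the adjustment the medians were 2299.5 and 2897.5 bases.

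**Figure D2:**
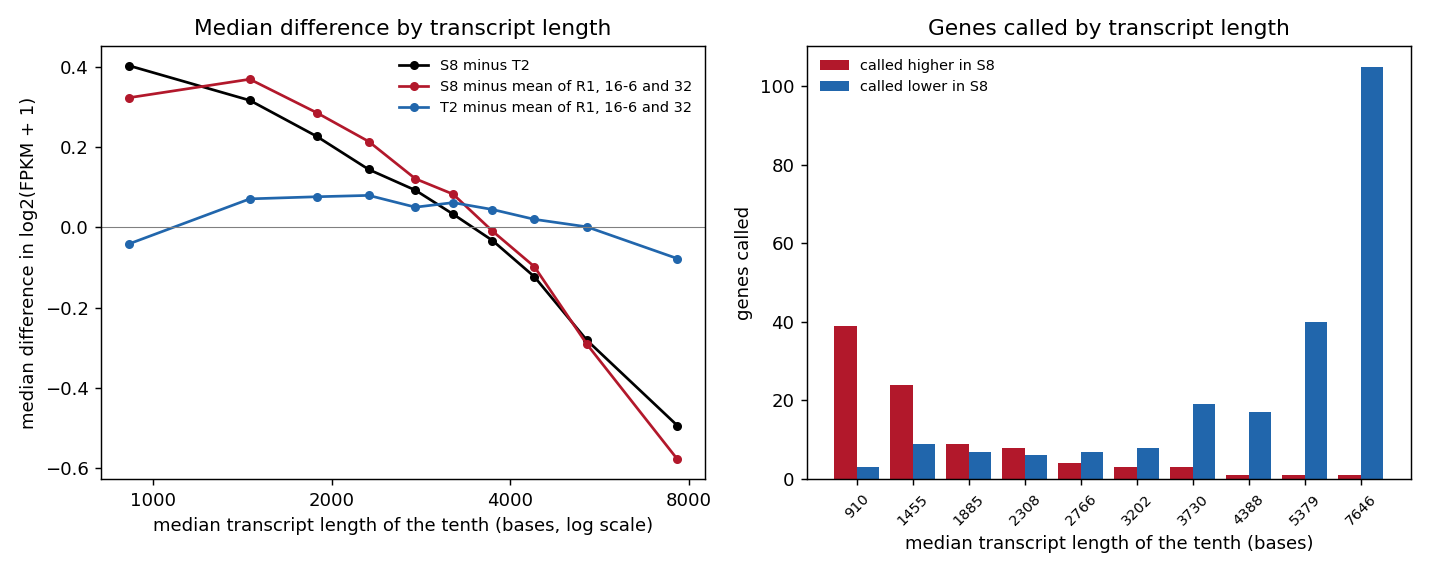
The left panel plots the median difference in log2(FPKM + 1) in each decile of genes ordered by transcript length (bases, log scale) for S8 minus T2, S8 minus the mean of the other 6 libraries and T2 minus that mean, and the right panel the number of genes called in each decile. Both lines for S8 fall from the shortest to the longest decile, from 0.40 to -0.49 against T2, while the line for T2 stays between -0.08 and 0.08.

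The genes that hold pluripotency were expressed in both lines. None of the 18 core pluripotency genes was called, and their median difference was 0.44 (length-adjusted 0.22). None of the 23 naive pluripotency genes tested was called either, with a median of 0.40 (length-adjusted 0.27), 0.23 after quantile normalization and 0.15 with equal totals. Both medians thus lay above that of all genes, in the direction of S8, by less than the 2-fold minimum. Of all genes tested 2.64% were called, and 0 calls in lists of this size is near that share. The naive list had a mean log2(FPKM + 1) of 5.12 in S8 and 4.81 in T2, below the 5.33 to 6.07 of the other libraries. The core list had 7.81 and 7.52, against 7.19 to 7.75. Pou5f1, which encodes Oct4, had an FPKM of 1020 in S8 and 730 in T2, a difference of 0.48 that shrank to 0.09 after adjustment. Sox2 had 284 in S8 and 207 in T2, a difference of 0.46 (length-adjusted 0.31).

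Nanog, a homeodomain factor of the same network, went the other way. Its FPKM was 80.8 (interval 76.1 to 85.4) in S8 and 112 (106 to 117) in T2, with 177 and 174 in R1, 153 and 160 in 16-6, and 321 and 327 in 32. S8 and T2 were thus the 2 lowest libraries of the series for this gene. The difference of -0.46 kept its size after adjustment (-0.50). The factor Klf4 had 72.6 in S8 and 53.3 in T2, Lin28a, a let-7 blocking RNA-binding protein, had 387 and 367, and Myc had 30.9 and 31.1.

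Larger differences without a call stood among the partners of the network. Utf1, a chromatin-bound factor of pluripotent cells, had an FPKM of 1193 in S8 and 611 in T2, a difference of 0.97 (length-adjusted 0.53). Fgf4, the growth factor that drives ERK signaling in ESCs, had 108 and 62.3 (0.79, length-adjusted 0.77). Zfp57, which protects imprinted methylation, had 98.4 and 57.1 (0.77, length-adjusted 0.78), and Dppa2 had 110 and 64.2 (0.77, length-adjusted 0.69). For these 3 genes the adjustment left most of the difference in place. Tet2, an enzyme that oxidizes 5-methylcytosine, had 6.79 and 11.5 (-0.68), which came to -0.06 after adjustment. Lin28b, the paralog of Lin28a, had 22.95 and 41.7 (-0.83, length-adjusted -0.42). The receptor subunit Lifr had 8.20 and 7.82 and the signal transducer Stat3 had 33.8 and 31.6.

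Genes of the formative and primed epiblast, the stages that follow the naive state, were split. Of the 19 tested, Dnmt3l was called higher and Fgf5 lower in S8 (10.5%, against 2.64% of all genes tested), with a list median of 0.03. The list's mean log2(FPKM + 1) was 5.87 in S8 and 5.81 in T2, above the 4.59 to 4.91 of the other libraries. Dnmt3l, a cofactor of the de novo DNA methyltransferases (chromosome 10, 77505032 to 77526360, mm9 as for all positions of genes here), reached 494 FPKM (interval 483 to 505) in S8 and 220 (213 to 227) in T2. R1 had 144 and 178, 16-6 had 124 and 127, and 32 had 104 and 102. The gene was therefore highest in S8 and next highest in T2. Its difference of 1.16 was 0.92 after adjustment, 0.89 after quantile normalization and 0.90 with equal totals, each under the minimum of 1. Its locus overlaps that of Aire, which was also called higher (1.18, length-adjusted 0.99), and reads of these 2 genes may not be fully separated.

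Fgf5, a growth factor of the primed epiblast (chromosome 5, 98683203 to 98706049), had an FPKM of 13.2 (interval 11.8 to 14.7) in S8 and 28.3 (26.2 to 30.4) in T2. It was 6.56 and 6.94 in R1, 15.2 and 16.6 in 16-6, and 22.2 and 24.02 in 32. S8 stood between R1 and the other iPSC lines, and T2 was the highest. The difference was -1.04 (length-adjusted -1.07). The methyltransferases themselves were closer, with 502 and 490 for Dnmt3b and 75.7 and 57.8 for Dnmt3a. Otx2, a head and epiblast factor, had 50.1 and 44.99.

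Genes that mark the parental tissues were mostly low in both lines. Of the 23 epidermal genes tested, 0 were called higher in S8, the epidermal line, and 2 were called lower, with a median of -0.22 (length-adjusted -0.19). The share called was 8.70%, against 2.64% of all genes tested. After adjustment 4 epidermal genes were called lower and 0 higher, and 15 of the 23 values were below 0. Of the 7 stomach genes tested, 3 were called higher in T2 (42.9%), and these were the keratins Krt8, Krt18 and Krt19 that simple epithelia share. The stomach list had a median of -0.03 (length-adjusted -0.40, with 6 of the 7 values below 0), and its members without a call were Barx1, Dpcr1, Pgc and Muc1, each at an FPKM of 2.22 or less. The other entries of the stomach list, 43 in all, stayed under an FPKM of 1 in both lines. Of the 43, 19 were at 0 in S8 and 18 in T2.

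Defining genes of each tissue were near the lower end of detection. Krt5, the keratin of basal keratinocytes, had an FPKM of 0.135 in S8 and 0.161 in T2. Pgc, which encodes pepsinogen C, had 1.42 in S8 and 1.46 in T2, and Ghrl, which encodes the stomach hormone ghrelin, had 0.676 and 0.606. For these genes the intervals of the 2 lines overlapped. The matrix protein tenascin C, whose gene Tnc stands in the epidermal list, had 72.8 (interval 71.2 to 74.5) in S8 and 112 (110 to 114) in T2. It was 232 ± 9.5 in R1, 685 ± 3.6 in 16-6 and 18.5 ± 0.65 in 32 (SD, n = 2 each), and its length-adjusted difference was -0.21. The blood and fat genes Hoxa9, Slc4a1 and Ppargc1a were below the minimum FPKM of 1 in both lines, with overlapping intervals. Igf1, a growth factor made by liver and fat, was also below it, with 0.0321 (0 to 0.0847) in S8 and 0.301 (0.132 to 0.470) in T2, and S8 was the lowest library of the series for this gene. No gene measured here identifies the library labelled S8 independently of its label, and the values of Krt5, Tnc and Igf1 do not single it out as epidermal.

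Among the genes called in the epidermal list was Dsp, which encodes desmoplakin, the link between desmosomes and keratin filaments (chromosome 13, 38243163 to 38290446). Its FPKM was 1.79 (interval 1.54 to 2.05) in S8 and 7.35 (6.87 to 7.83) in T2, against 4.67 and 4.59 in R1, 11.7 and 11.8 in 16-6, and 12.9 and 14.1 in 32. S8 was the lowest of the 8 libraries, and the difference was -1.58 (length-adjusted -1.18). Members with the opposite sign were Krt17, with 16.6 and 8.52, and the envelope cross-linking enzyme Tgm1, with 12.9 and 8.22, neither of which was called.

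The keratins of simple epithelia were the called members of the epithelial and stomach lists. Krt8 and Krt18 pair into the first keratin filaments of the embryo, and Krt19 is expressed with them in many simple epithelia. Krt8 (chromosome 15, 101827142 to 101834773) had an FPKM of 17.02 (interval 15.1 to 18.95) in S8 and 70.0 (66.4 to 73.7) in T2, a 4.11-fold difference. R1 had 8.89 and 7.55, 16-6 had 87.7 and 89.7, and 32 had 68.8 and 71.2. The values fell into a low set of S8 and R1 and a high set of T2, 16-6 and 32 that did not overlap. The log2 difference was -1.98 and became larger after adjustment, -2.29.

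Krt18 (chromosome 15, 101858647 to 101862457) followed the same split, though S8 lay between R1 and the other lines. Its FPKM was 30.1 (interval 27.3 to 32.8) in S8 and 65.4 (61.6 to 69.1) in T2, with 7.34 and 8.69 in R1, 57.3 and 58.5 in 16-6, and 48.8 and 41.3 in 32. Krt19 (chromosome 11, 100002126 to 100007233) had 6.06 (4.65 to 7.46) in S8 and 14.1 (12.1 to 16.1) in T2, with 8.15 and 8.90 in R1, 20.48 and 20.53 in 16-6, and 20.05 and 20.5 in 32. For both the difference was -1.09 and the length-adjusted difference -1.49. Of 7 keratins tested these 3 were called (42.9%, against 2.64% of all genes tested), and the other 4 had differences of 0.14 (Krt7) to 0.90 (Krt42).

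Other epithelial genes differed less. Of the 23 genes of epithelial junctions and state, the 3 keratins were the only calls, and the list had a median of -0.25 (length-adjusted -0.45). E-cadherin (Cdh1) had an FPKM of 270 in S8 and 322 in T2, and Epcam, another adhesion molecule of epithelia, had 262 and 222. The tight junction gene Cldn7 had 45.8 and 71.3, a difference of -0.63 that came to -1.02 after adjustment. The p53 target Perp, a desmosomal protein, had 14.4 and 27.7 (-0.90, length-adjusted -1.05), and stratifin (Sfn), a 14-3-3 protein of epithelia, had 49.8 and 79.1 (-0.66, length-adjusted -1.07).

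Genes of the primitive streak were the developmental group with the most calls. The streak is the site of gastrulation, and the genes that start it are targets of Wnt signaling through beta-catenin and the TCF/LEF factors. Of 14 tested, 4 were called lower in S8, Fgf8, T, Wnt3 and Sp5, and 0 higher. The share called was 28.6%, against 2.64% of all genes tested. The list median was 0.01, and -0.37 after adjustment, with 11 of the 14 length-adjusted values below 0. Under quantile normalization the list had 3 lower calls and 1 higher. The 250 bases upstream of the start of T, Sp5 and Wnt3 are shown from RefSeq (GRCm38.p6, plus strand), since these genes were low together, with matches to the TCF/LEF core CTTTGA on either strand in capitals.
T, chr17:8434173-8434422: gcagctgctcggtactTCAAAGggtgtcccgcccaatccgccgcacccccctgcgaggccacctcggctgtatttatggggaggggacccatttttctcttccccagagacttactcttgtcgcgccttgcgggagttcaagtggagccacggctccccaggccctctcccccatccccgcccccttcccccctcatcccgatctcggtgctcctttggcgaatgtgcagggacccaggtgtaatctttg
Sp5, chr2:70474673-70474922: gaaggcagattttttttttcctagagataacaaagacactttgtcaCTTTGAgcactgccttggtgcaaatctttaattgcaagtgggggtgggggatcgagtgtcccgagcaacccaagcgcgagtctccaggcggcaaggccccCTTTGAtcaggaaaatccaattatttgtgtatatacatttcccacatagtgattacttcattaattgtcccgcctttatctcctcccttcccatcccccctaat
Wnt3, chr11:103773925-103774174: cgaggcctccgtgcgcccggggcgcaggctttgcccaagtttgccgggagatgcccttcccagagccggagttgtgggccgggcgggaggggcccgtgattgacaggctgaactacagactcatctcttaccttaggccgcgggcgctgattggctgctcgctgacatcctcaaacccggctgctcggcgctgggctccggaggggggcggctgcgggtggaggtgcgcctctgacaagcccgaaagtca
The window of Sp5 held 2 matches, that of T held 1 and that of Wnt3 held 0, and 13.8% of the 32851 windows in the table held at least 1. A match in these letters is a description of the sequence and says nothing of binding.

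T encodes brachyury, the T-box factor of the streak (chromosome 17, 8627288 to 8635361). Its FPKM was 0.578 (interval 0.298 to 0.858) in S8 and 2.85 (2.25 to 3.45) in T2. R1 had 1.87 and 2.28, 16-6 had 11.8 and 11.6, and 32 had 18.8 and 17.5. S8 was the lowest library, and T2 was closer to R1 than to the other iPSC lines. The difference was -1.29 (length-adjusted -1.53), based on 17 implied fragments in S8 and 90 in T2.

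Fgf8 encodes a growth factor that streak cells need to migrate (chromosome 19, 45811288 to 45817374). Its FPKM was 8.74 (interval 6.50 to 10.98) in S8 and 28.3 (23.9 to 32.8) in T2, against 2.24 and 1.65 in R1, 20.8 and 22.6 in 16-6, and 16.2 and 18.4 in 32. T2 was the highest library and S8 lay between R1 and the other iPSC lines. The difference of -1.59 was -2.12 after adjustment, since genes of its length were on the whole higher in S8.

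The ligands and targets of the Wnt pathway were tested as a list of their own. Of 18, the ligands Wnt3 and Wnt8a and the targets T and Sp5 were called lower in S8 and Notum was called higher, with a median of -0.09. The share called was 27.8%, against 2.64% of all genes tested, and T, Wnt3 and Sp5 are also in the streak list. Wnt3, the ligand that induces the streak (chromosome 11, 103635489 to 103679335), had an FPKM of 0.527 (interval 0.291 to 0.763) in S8 and 2.49 (2.00 to 2.99) in T2. R1 had 0.528 and 0.560, 16-6 had 3.06 and 3.69, and 32 had 1.99 and 2.19. Like the keratins, the gene was low in S8 and R1 and high in the other lines, and its difference was -1.19 (length-adjusted -1.28).

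Wnt8a, a ligand of the early streak (chromosome 18, 34701982 to 34707715), had 2.91 (interval 1.99 to 3.83) in S8 and 9.05 (7.51 to 10.6) in T2. It was 0.868 and 0.648 in R1, 8.23 and 8.08 in 16-6, and 6.04 and 6.50 in 32. The split was that of Wnt3, though S8 lay between R1 and the other lines, and the difference was -1.36 (length-adjusted -1.66). Sp5, a zinc finger factor that responds directly to beta-catenin (chromosome 2, 70312980 to 70315783), had 0.764 (0.369 to 1.16) in S8 and 2.66 (1.99 to 3.32) in T2. Here R1 was higher than both, with 5.17 and 4.72, as were 16-6, with 14.3 and 13.8, and 32, with 6.56 and 6.79. The difference was -1.05 (length-adjusted -1.37) on 15 and 64 implied fragments.

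Notum, a secreted enzyme that removes the lipid from Wnt ligands and so limits the pathway, had 13.7 (interval 12.2 to 15.3) in S8 and 5.18 (4.28 to 6.08) in T2. It was 17.4 ± 0.099 in R1, 5.72 ± 0.25 in 16-6 and 15.2 ± 0.50 in 32 (SD, n = 2 each). T2 and 16-6 were low and the others high. Its difference was 1.25 (length-adjusted 0.93). The feedback target Axin2 had 3.34 and 5.32 (-0.54), beta-catenin itself (Ctnnb1) had 281 and 316, and the repressor Tcf7l1 had 115 and 77.6 (0.56, length-adjusted 0.26). None of the last 3 was called.

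**Figure D3:**
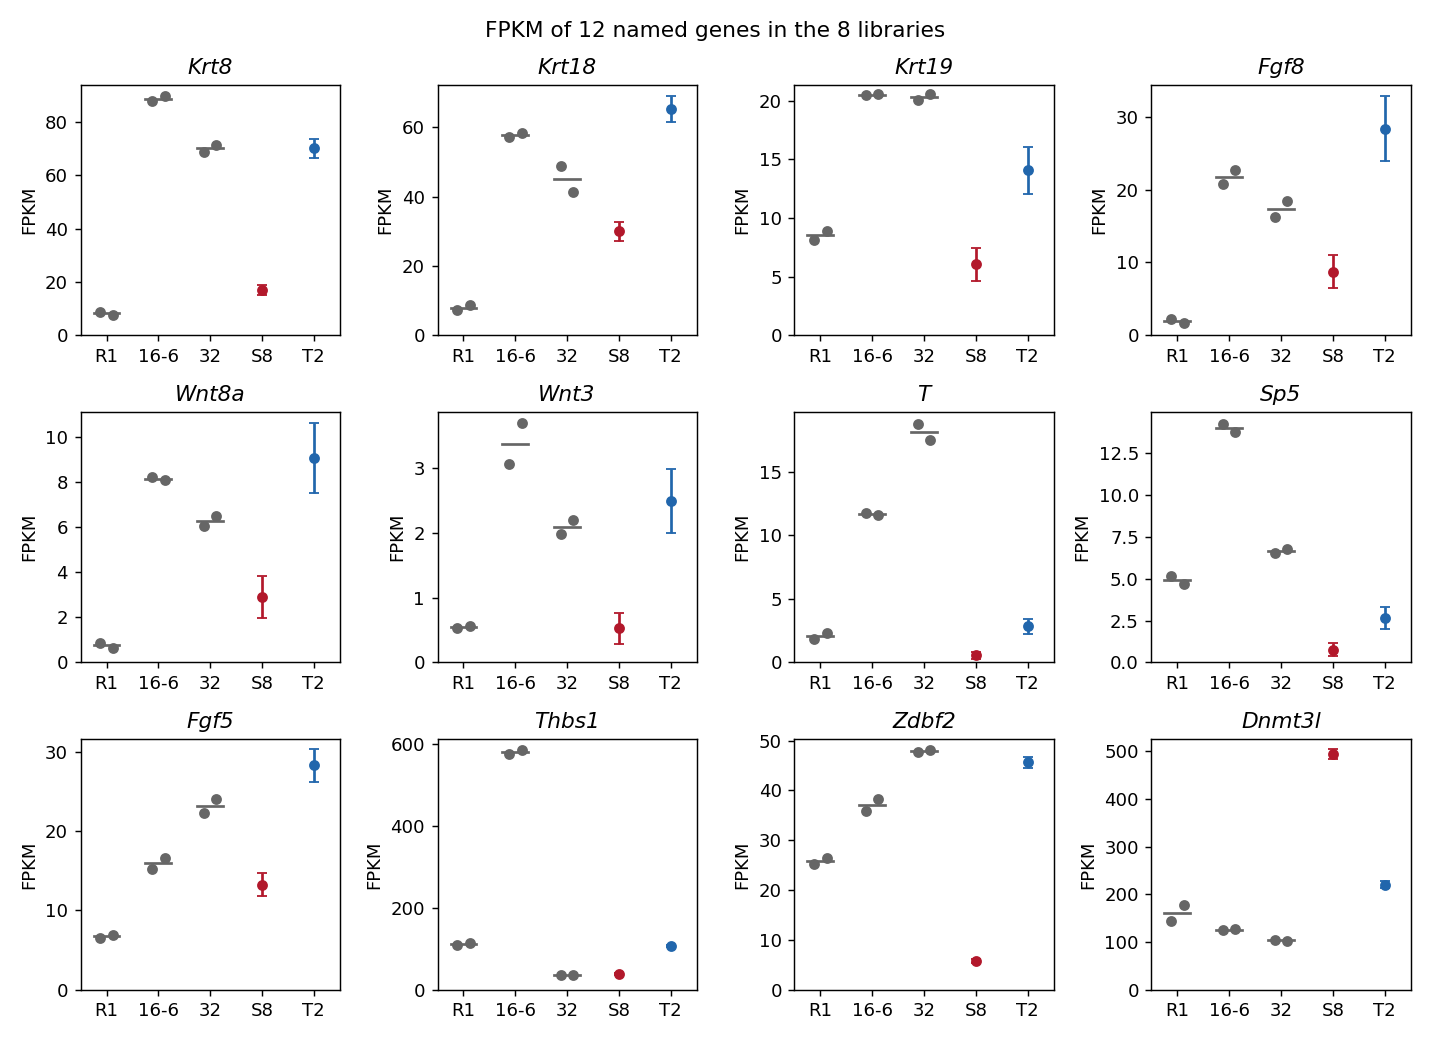
FPKM of 12 named genes by line, with grey points for the replicates of R1, 16-6 and 32, grey bars for their means, and the single libraries S8 (red) and T2 (blue) with their confidence intervals from the files. Krt8, Krt18, Fgf8, Wnt8a and Wnt3 are lower in S8 and R1 than in T2, 16-6 and 32. For Krt18, Fgf8 and Wnt8a, S8 lies between R1 and the others. Zdbf2 is lowest and Dnmt3l highest in S8.

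Other developmental lists held few calls. Of 20 primitive endoderm genes, which mark the extraembryonic layer beside the epiblast, 0 were called, and the median was -0.28 (length-adjusted -0.35). The list of 13 trophectoderm genes held only the calls of Krt8 and Krt18 (15.4%, against 2.64% of all genes tested). Of 8 neural progenitor genes tested, Nes was called. Nes encodes the intermediate filament nestin and had 10.9 (interval 10.2 to 11.6) in S8 and 29.1 (27.9 to 30.2) in T2, with 10.04 and 10.2 in R1, 42.3 and 41.4 in 16-6, and 26.4 and 25.8 in 32. S8 and R1 were alike and low for this gene. Its difference was -1.34 (length-adjusted -1.20). Of 9 Hox genes tested, 0 were called.

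Markers of fibroblasts, the cells of the feeder layer, leaned toward T2. Of 38 tested, 6 were called lower (15.8%, against 2.64% of all genes tested) and 0 higher. The median was -0.39 (length-adjusted -0.44), against 0.05 for all genes. Their summed FPKM was 1924 in S8 and 2422 in T2, within the range of 1018 to 7980 in the other 6 libraries. The list's mean log2(FPKM + 1) was 4.45 in S8 and 4.94 in T2, between 32 with 3.13 and 3.15 and R1 with 5.71 and 5.79. No marker of the list was at 0 in either line. In these bulk libraries fewer fibroblasts, less RNA per fibroblast and expression by the iPSCs themselves cannot be told apart. The part of feeder RNA in other genes was not tested.

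Thbs1, the matrix glycoprotein thrombospondin 1 (chromosome 2, 117937658 to 117952869), had the largest difference of the list. It had an FPKM of 38.3 (interval 36.9 to 39.6) in S8 and 107 (105 to 110) in T2, with 109 and 115 in R1, 575 and 585 in 16-6, and 35.6 and 36.6 in 32. S8 was near 32, T2 near R1 and 16-6 far above them. The difference was -1.47 (length-adjusted -1.15). The collagen cross-linking enzyme Lox had 17.5 in S8 and 48.1 in T2 (-1.41, length-adjusted -1.18). The fibrillin gene Fbn1 had 7.53 and 21.1 (-1.38, length-adjusted -0.97), and the inhibitor of metalloproteinases Timp3 had 7.87 and 18.9 (-1.17). Periostin (Postn) had 10.8 and 23.3 (-1.04, length-adjusted -0.93) and the collagen chain Col6a3 had 7.37 and 16.02 (-1.02, length-adjusted -0.66). After adjustment 3 members were called, Thbs1, Lox and Timp3.

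The 5 most abundant members of the fibroblast list had no call. Their values were 483 in S8 and 421 in T2 (0.20) for the filament protein vimentin (Vim), 167 and 243 (-0.54) for Col1a1, the main chain of type I collagen, and 177 and 218 (-0.29) for the matrix protein Sparc. Fibronectin (Fn1) had 129 and 216 (-0.74) and the proteoglycan Bgn had 134 and 156 (-0.22). Over the 38 members 32 differences were below 0, and 36 after adjustment. Of the 19 contractile genes, 0 were called, with a median of -0.38 (length-adjusted -0.43).

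Germline genes that DNA methylation silences in somatic cells leaned toward S8. Of 22 tested, 3 were called higher (13.6%, against 2.64% of all genes tested) and 0 lower, and after adjustment only Rpl10l was called. Of the 22 differences 20 were above 0, and the median was 0.69 (length-adjusted 0.61), the highest of the 38 lists. It stayed above 0 with quantile normalization (0.77) and with equal totals (0.48). Rpl10l, a retrogene of ribosomal protein L10 used in spermatogenesis, had an FPKM of 60.9 (interval 55.5 to 66.2) in S8 and 21.6 (18.6 to 24.6) in T2. It was 29.7 and 33.7 in R1, 11.5 and 8.14 in 16-6, and 23.2 and 25.3 in 32. S8 was highest, and the difference was 1.46 (length-adjusted 1.06). As a copy of an abundant gene it may share reads with its parent.

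Stra8, which germ cells need to enter meiosis, had 2.42 (interval 1.68 to 3.16) in S8 and 0.465 (0.155 to 0.774) in T2, on 43 and 9 implied fragments. Its difference was 1.22 (length-adjusted 0.98). R1 had 1.27 and 1.57, 16-6 had 1.70 and 2.20, and 32 had 2.29 and 2.31, so that T2 was the lowest library and S8 the highest by a small margin over 32. Tuba3a, an alpha-tubulin of the testis with a near-identical copy, had 7.18 and 2.72 (1.14, length-adjusted 0.76). Among members under the minimum, the meiotic gene Hormad1 had 20.98 and 10.5 (0.93), the piRNA factor Mael had 31.5 and 17.1 (0.84), and the RNA-binding gene Dazl had 4.76 and 2.36 (0.78). Outside this list, the cofactor Dnmt3l and the testis RNA-binding gene Rbmxl2 were also called higher, though neither after adjustment. Rbmxl2 had 209 (199 to 220) in S8 and 84.2 (78.6 to 89.8) in T2. The difference of Rbmxl2 was 1.30 (length-adjusted 0.87). The 5 tested genes of the 2-cell-like state, 4 of them members of the Zscan4 cluster, had a median of 0.56 and 0 calls, with Zscan4c the most abundant at 2.10 in S8 and 1.11 in T2.

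Imprinted genes are expressed from 1 parental copy, and their control regions can lose or gain methylation in cultured stem cells. Of 45 tested outside the Dlk1-Dio3 domain, 3 paternally expressed genes, Impact, Peg3 and Sfmbt2, were called lower in S8 and 0 higher. The share called was 6.67%, against 2.64% of all genes tested, and the median was -0.22 (length-adjusted -0.15). After adjustment 2 members were called lower, and Peg3 and Sfmbt2 were not called. Peg3, a zinc finger protein (chromosome 7, 6658671 to 6683130), had an FPKM of 33.7 (interval 32.5 to 34.9) in S8 and 80.1 (78.4 to 81.9) in T2. R1 had 31.6 and 32.7, 16-6 had 52.1 and 52.2, and 32 had 49.8 and 51.1. S8 was near R1, and T2 was the highest library. The difference of -1.23 was -0.67 after adjustment, for a transcript of 8694 bases.

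Impact, an inhibitor of the translation kinase GCN2 (chromosome 18, 13130761 to 13151457), had 70.4 (interval 67.6 to 73.1) in S8 and 158 (154 to 162) in T2. It was 105 and 104 in R1, 156 and 170 in 16-6, and 194 and 190 in 32. S8 was the lowest library, and the difference was -1.16 (length-adjusted -1.06). Sfmbt2, a polycomb group gene, had 9.51 and 23.6 (-1.23, length-adjusted -0.60). Nnat, a paternally expressed gene of a small membrane protein, had 24.3 and 46.3 (-0.90, length-adjusted -1.37) and was not called before adjustment. The maternally expressed Cdkn1c, a cell cycle inhibitor, had 79.9 and 43.3 (0.87, length-adjusted 0.45), and H19 had 58.7 and 70.1.

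Of the 8 tested genes of Dlk1-Dio3, the maternally expressed noncoding RNA Rian was called lower in S8. It had 95.4 (interval 92.4 to 98.4) in S8 and 200 (196 to 205) in T2, with 184 ± 6.9 in R1, 281 ± 8.8 in 16-6 and 126 ± 7.6 in 32 (SD, n = 2 each). Its neighbor Meg3 had 94.7 and 143 (-0.59). Both were expressed in S8, at a lower level than in the other lines for Rian, and neither could be adjusted for length because the transcripts are noncoding.

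Zdbf2, an imprinted gene of the paternal copy that was not in the fixed list, stood behind only Btg3, Zbed6 and Ltb in the size of its difference toward T2 among the 230 genes called lower. Zdbf2 lies on chromosome 1, 63319843 to 63361149, and had an FPKM of 5.84 (interval 5.45 to 6.24) in S8 and 45.7 (44.6 to 46.8) in T2, a 7.82-fold difference. R1 had 25.3 and 26.5, 16-6 had 35.8 and 38.2, and 32 had 47.7 and 48.1. S8 was far below every other library. The difference was -2.77, and -2.23 after adjustment for its transcript of 12629 bases.

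Before adjustment the IGF axis, a signaling pathway, had the lowest median of the lists, -0.54 over 15 genes (length-adjusted -0.41). After adjustment the lists of epithelial junctions, fibroblast markers and contractile genes had lower medians. In the IGF list 2 genes were called lower in S8. These 2 were 13.3% of the genes tested in the list, against 2.64% of all genes tested. Igfbp3, a carrier that limits access of IGFs to their receptor (chromosome 11, 7106096 to 7113926), had an FPKM of 23.6 (interval 21.7 to 25.4) in S8 and 58.6 (55.8 to 61.4) in T2. R1 had 36.3 and 33.9, 16-6 had 50.3 and 50.6, and 32 had 61.6 and 63.3. S8 was lowest, and the difference was -1.28 (length-adjusted -1.43). Irs2, the adaptor that passes the receptor's signal on, had 4.84 and 14.1 (-1.38, length-adjusted -1.54). The receptors Igf1r, with 6.08 and 11.2, and Insr, with 2.40 and 4.69, were not called.

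In the BMP list 1 of 16 genes was called, and the median was -0.20 (length-adjusted -0.24). After adjustment 2 were called lower and 0 higher, and 13 of the 16 values were below 0. Bmpr2, the type II receptor of BMP ligands (chromosome 1, 59821481 to 59927703), had 1.38 (interval 1.05 to 1.71) in S8 and 7.79 (7.04 to 8.55) in T2, a 5.65-fold difference. It was 9.23 and 10.8 in R1, 15.8 and 16.8 in 16-6, and 7.94 and 9.18 in 32. S8 was the lowest library by a wide margin, and the difference was -1.89 (length-adjusted -1.72). The target genes Id1 and Id3 were closer, with 25.7 in S8 and 31.4 in T2 for Id1 and 63.1 and 62.4 for Id3. The ligand Bmp7 had 1.63 and 4.08 (-0.95, length-adjusted -1.03).

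Nodal and TGF-beta genes (20 tested) and FGF and ERK feedback genes (22 tested) had 0 calls, with medians of -0.07 and -0.20. Nodal had 45.7 and 47.4 and its inhibitor Lefty1 had 309 and 296. The immediate early genes Egr1 and Fos, which respond to ERK, had 55.5 and 88.3 and 68.3 and 95.96. Of the 16 genes of LIF and STAT3 signaling, only Sp5 was called. Its member Jak2, a kinase of the pathway, had 1.73 and 4.02 (-0.88, length-adjusted -0.49), and Socs3, the feedback inhibitor, had 38.8 and 24.5 (0.64, length-adjusted 0.35).

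Genes with short transcripts stood together on the side of S8 before adjustment. Of 78 cytosolic ribosomal protein genes, 77 had a difference above 0 and the median was 0.38, yet only Rps27 was called. Their median transcript was 855 bases long, and the length-adjusted median was 0.00. The 42 nuclear genes of oxidative phosphorylation had 0 calls, a median of 0.40 and a length-adjusted median of 0.07. For the 32 tested replication-dependent histone genes, whose messages lack a poly(A) tail and are captured poorly with oligo(dT), the median went from 0.59 to 0.11. Hist2h4 was their only call, with 1.88 in S8 and 10.02 in T2, in a family of near-identical copies. In these 3 lists little of the median remained after adjustment.

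**Figure D4:**
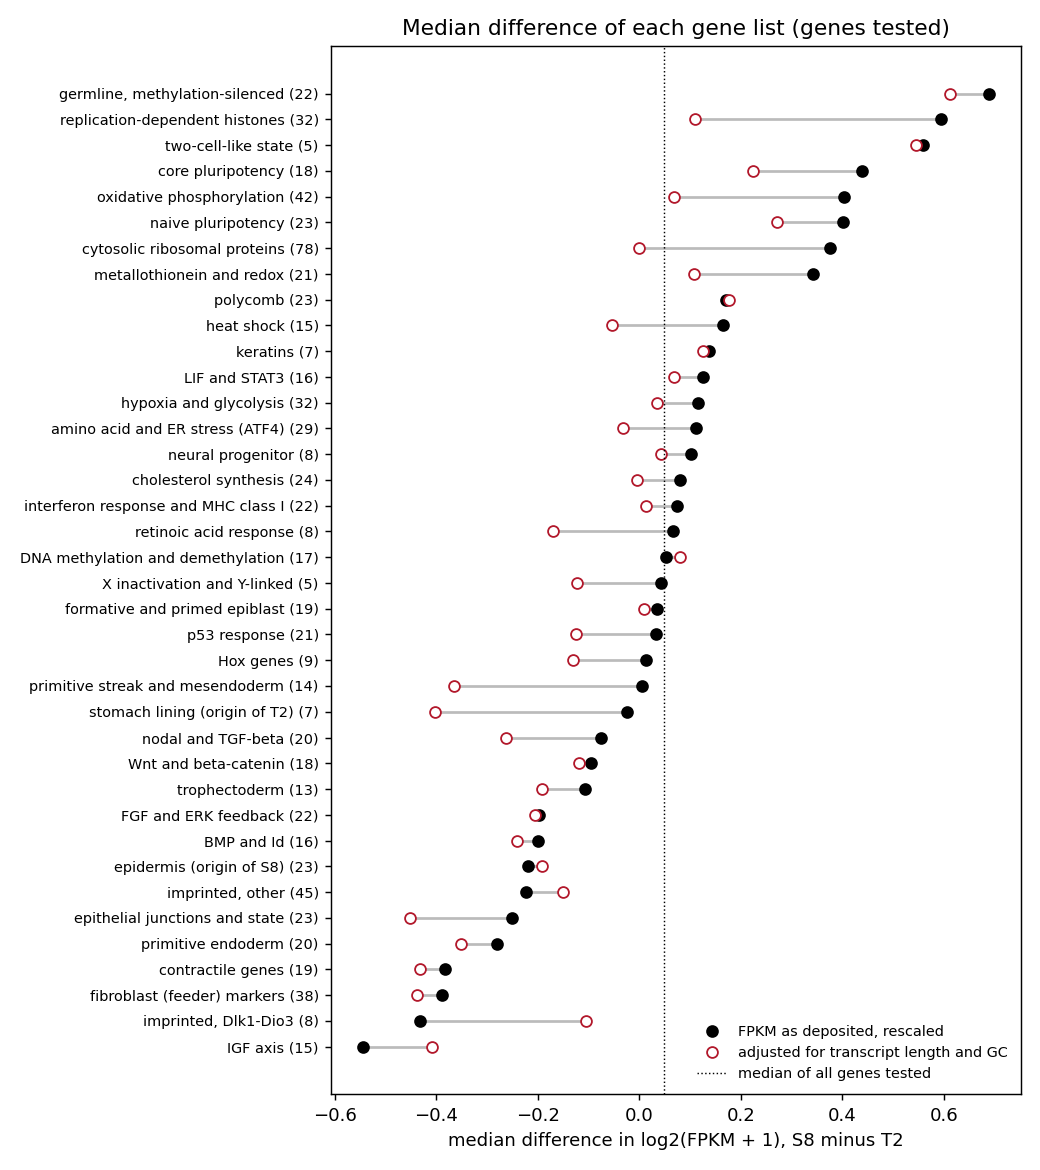
Median difference in log2(FPKM + 1), S8 minus T2, for each of 38 gene lists with the number of genes tested in brackets, as measured (filled) and after adjustment for transcript length and GC content (open), and the median of all genes tested as a dotted line. Ribosomal protein genes move from 0.38 to 0.00 and the germline list from 0.69 to 0.61.

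Lists of cell stress, metabolism and defense held at most 1 call. With 2.64% called over all genes tested, 0 or 1 call in lists of this size says little about these functions. In the heat shock list Hspb1, a small chaperone, was called higher with 901 (interval 878 to 923) in S8 and 445 (430 to 460) in T2, a difference of 1.02 that was 0.49 after adjustment. The p53 response (21 tested), the amino acid and ER stress response (29), hypoxia and glycolysis (32), cholesterol synthesis (24), polycomb (23), metallothionein and redox (21) and interferon response with MHC class I (22) had 0 calls each. Their medians were 0.03, 0.11, 0.12, 0.08, 0.17, 0.34 and 0.07 in that order. The 8 tested genes of the retinoic acid response held the call of Stra8, and the 17 of DNA methylation that of Dnmt3l.

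The largest differences toward T2 included genes with no place in the lists. Ltb, the membrane-bound cytokine lymphotoxin beta (chromosome 17, 35331452 to 35333250), had an FPKM of 0.327 (interval 0 to 0.654) in S8 and 8.49 (6.93 to 10.1) in T2, on 4 and 118 implied fragments. R1 had 1.56 and 2.37, 16-6 had 5.28 and 6.91, and 32 had 9.83 and 11.96. S8 was lowest and R1 next, and both lay below T2, 16-6 and 32. The difference was -2.84 (length-adjusted -3.37).

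Slc39a8, a zinc transporter whose locus overlaps 4933401H06Rik, had 0.697 (interval 0.345 to 1.05) in S8 and 8.04 (6.82 to 9.25) in T2, a difference of -2.41 (length-adjusted -2.32), with 1.86 and 1.69 in R1 and 4.78 to 6.85 in 16-6 and 32. Ppp4r4, a regulatory subunit of protein phosphatase 4, had 1.39 (1.03 to 1.75) and 9.44 (8.51 to 10.4), with 1.48 and 1.97 in R1 and 8.80 to 10.5 in 16-6 and 32. Kcnj3, a potassium channel subunit, had 3.87 and 16.1 (-1.81), Fndc3c1 on chromosome X had 3.75 and 16.7 (-1.90), and Nefm, a neurofilament subunit, had 0.718 and 5.31 (-1.88). All 5 were low in S8 and R1 and high in T2, 16-6 and 32.

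A second set was lowest in S8 without low values in R1. Prrg4, a membrane protein with a Gla domain, had 5.27 (interval 4.49 to 6.05) in S8 and 22.3 (20.8 to 23.9) in T2, with 25.02 ± 0.36 in R1, 22.5 ± 0.14 in 16-6 and 22.8 ± 0.75 in 32 (SD, n = 2 each). The ubiquitin ligase Cbl had 3.53 and 15.6, with 16.0 ± 0.57, 18.1 ± 0.0034 and 14.8 ± 0.96 in R1, 16-6 and 32. Tankyrase (Tnks), which marks Axin for degradation, had 6.99 and 25.2, with 32.4 ± 0.61, 27.5 ± 1.7 and 30.5 ± 0.33. In these genes T2 lay at or near the level shared by the other lines. Their length-adjusted differences were -1.89, -1.56 and -1.22. In Pgap1, Zfp369 and Uhmk1, with differences of -1.72, -1.72 and -1.84, T2 lay just below the range of the other 6 libraries. In Lnpep (-1.75) T2, with 9.69, lay between S8, with 2.19, and the others, with 19.7 to 25.7. Zbed6 had 3.37 in S8 and 31.6 in T2, and T2 too lay below the others, with 46.3 to 72.0. It lies within the locus of Zc3h11a and was not adjusted.

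Among the 102 genes called higher in S8, the largest difference without an overlapping locus was that of Zbp1, a sensor of nucleic acids in the Z form. It had an FPKM of 8.53 (interval 6.36 to 10.7) in S8 and 1.15 (0.419 to 1.88) in T2, on 62 and 10 implied fragments. R1 had 3.81 and 5.39, 16-6 had 1.79 and 1.30, and 32 had 2.85 and 3.01. S8 was highest, and the difference was 2.15 (length-adjusted 1.91). Gstp2, a glutathione transferase with a close paralog, had 29.8 and 6.72 (2.00, length-adjusted 1.55), and the septin gene Sept1 had 90.4 and 27.9 (1.66, length-adjusted 1.26).

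Wt1 and Tcf15 were transcription factors among the genes higher in S8. Wt1, the zinc finger factor of kidney and gonad development (chromosome 2, 104966686 to 105013771), had 17.04 (interval 15.7 to 18.4) in S8 and 5.65 (4.92 to 6.37) in T2, with 1.20 and 1.17 in R1, 3.56 and 3.24 in 16-6, and 1.86 and 1.84 in 32. Both S8 and T2 were above the other libraries, S8 the more so, and the difference was 1.44 (length-adjusted 1.35). Tcf15, a bHLH factor of somites that also marks stem cells primed to differentiate (chromosome 2, 151969345 to 151974832), had 137 (128 to 147) and 53.7 (48.3 to 59.1), with 27.6 and 36.9 in R1, 22.4 and 20.7 in 16-6, and 23.4 and 28.7 in 32. The order of the libraries was that of Wt1 for S8 and T2, and the difference was 1.34 (length-adjusted 0.81). The segmentation gene Ripply1 had 11.4 and 3.46 (1.47, length-adjusted 1.02).

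The most abundant genes called higher were Upp1, a uridine phosphorylase with 504 (interval 489 to 518) in S8 and 211 (201 to 220) in T2, Hspb1, and Chchd10, a mitochondrial protein with 587 and 273. R1 had 555 ± 53 for Upp1 and 649 ± 78 for Chchd10 (SD, n = 2 each), so for these genes T2 and 16-6 were the low libraries. After adjustment their differences were 0.91 and 0.57. LOC624853 within Hspa8 and the small nucleolar RNA Snord12 were also among them, and their reads may belong to the genes they overlap. Among the most abundant genes called lower were Impact, Rian, the nuclear import receptor Tnpo1, with 44.4 and 119 (-1.41, length-adjusted -0.82), Prrc2c, with 53.8 and 110 (-1.01, length-adjusted -0.50), and the small nucleolar RNA Snora28 within Eif5.

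The level of each gene in the other 6 libraries gives a range in which S8 and T2 can be placed. In the study's mapping summary S8 and T2 also differ from those libraries in reads and uniquely mapped share. Whether a value outside the range belongs to the line or to the library therefore cannot be told. Of the 332 genes called, S8 alone lay outside the range of the 6 libraries in 153 (46.1%), T2 alone in 43 (12.95%), both in 114 (34.3%) and neither in 22 (6.63%). Over all genes tested the shares were 23.6%, 10.5%, 33.7% and 32.2%. Among the 142 genes called after adjustment, S8 alone was outside in 65 (45.8%) and T2 alone in 22 (15.5%). A difference between these shares was not tested.

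The 3 called keratins had S8 and R1 on 1 side and T2, 16-6 and 32 on the other. This order held for 105 of the called genes (31.6%), 34 higher and 71 lower in S8, against 10.4% of all genes tested. A gene can meet it without a gap between the sides. For T and Aire, T2 was nearer to R1 than to 16-6 and 32, and for Zdbf2, S8 was far below R1. The genes lower in S8 and R1 included Krt8, Krt18, Krt19, T, Wnt3, Wnt8a, Fgf8, Fgf5, Nes, Dsp, Irs2, Igfbp3, Impact, Peg3 and Zdbf2. Those higher in S8 and R1 included Upp1, Zbp1, Rpl10l, Ripply1 and Aire. The splits overlap, since a gene can meet several of them. S8 alone lay on 1 side of every other library in 265 called genes (79.8%, against 48.9% of genes tested), and T2 alone in 85 (25.6%, against 21.1%). With S8 stood 16-6 in 19 (5.72%, against 7.79%), 32 in 75 (22.6%, against 17.5%), R1 and 32 in 85 (25.6%, against 12.1%), R1 and 16-6 in 29 (8.73%, against 8.28%), and 16-6 and 32 in 11 (3.31%, against 5.69%). A call between S8 and T2 already places these 2 lines on opposite sides, so the shares of called genes and of genes tested are not on equal terms.

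Calls were spread over the chromosomes. The share of genes called was highest on chromosome X, with 4 higher and 19 lower of 448 tested (5.13%), and on chromosome 1, with 4 higher and 28 lower of 687 (4.66%), and it was 1.31% to 3.65% on the other autosomes. The length-adjusted median difference of every autosome and of X lay between -0.06 and 0.06.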

How the data were processed

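RNA-seq libraries of S8 and T2 (1 each) and of R1, 16-6 and 32 (2 each) were used. The authors mapped reads with TopHat2 2.0.4 to UCSC genes of mm9, kept unique alignments, and deposited FPKM with confidence limits from Cufflinks (2.0.0 per the processing notes). The study's mapping summary lists more reads and a lower uniquely mapped share for S8 and T2 than for the other libraries. FPKM and limits were divided by 12725.7, which brings the median library total to 1000000. Entries were joined on name, locus and start site. Genes with FPKM of at least 1 in S8 or T2 were tested, with pseudocount 1, and called where log2(FPKM + 1) differed by at least 1 and the intervals did not overlap. No p-value was computed. Implied fragments are the square of 2 × FPKM / (upper limit − FPKM). GENCODE M1 gave length and GC content, by the longest coding transcript (95.7% of genes tested matched), and medians were taken in 100 cells of length and GC. Promoters and the motif search used the RefSeq table for GRCm38.p6. Coordinates are mm9, counted from 1. The rule for named genes took the 20 largest called differences in each direction (locus of 300 bases or more, FPKM of 5 or more in the higher library), called members of 38 lists, the 5 called genes of highest FPKM in each direction, called short loci, and the pluripotency and tissue genes that the study examined. Aire, the overlap of Dnmt3l, and most list members without a call were picked after their values were seen. Members and lists were chosen with earlier results of these data known. The call rule was tested on simulated data. Python 3.11.15, pandas 2.3.3 and numpy 2.4.6 were used. Some genes that the rule names are not reported here.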

Additional observations from a re-analysis of the deposited data

How the results depend on the processing

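No paired analysis was possible because S8 and T2 have 1 library each, and for the same reason no replicate could be left out. The 332 genes called (102 higher and 230 lower in S8) became 690 (205 and 485) with pseudocount 0.1, 6493 (3511 and 2982) with intervals and no fold minimum, and 537 (36 and 501) with both libraries at the same total. The length and GC adjustment, chosen after seeing the data, gave 142 (34 and 108). With the 2-fold minimum and no intervals, 167 genes were higher, and the total of 454 stayed within 1.5 times. Quantile normalization, median centring, other filters on low values, and the removal of short loci gave totals of 251 to 359. Requiring 10 or more implied fragments gave 329, and a difference above that of any replicate pair 330, both chosen after seeing the data. No called gene named in the text changed sign under another pseudocount, scaling or the adjustment. The calls and values were less stable. Of the 314 called genes that could be adjusted, 108 were called both ways. Of the 125 genes that the rule names, called or not, 62 were marked as moved with equal totals and 37 with quantile normalization. Under the adjustment 55 were marked as moved and 56 as the same. The cause of these shifts was not tested beyond what each setting itself changes. Genes resting on few fragments have wide intervals, and the spread between cultures of S8 or T2 was not measured.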

Other observations

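Some differences between S8 and T2 fell on loci that overlap another gene or that also varied between replicates. Btg3, which overlaps Gm7334, had an FPKM of 0.000851 in S8 and 13.2 in T2, but 6.32 and 0.000421 in the replicates of R1 and 0.00046 and 6.58 in those of 32. Rangrf, which overlaps Slc25a35, had 107 in S8 and 37.1 in T2, and its largest log2 difference between replicates was 4.88. Rsc1a1, which lies within Ddi2, had 28.3 in S8 and 7.03 in T2, where the interval of T2 ran from 0 to 24.5. The pseudogene Atp6v0c-ps2, which overlaps Atp6v0c, had 10.99 in S8 and 0.000195 in T2. Of the genes called, 62 (18.7%) overlap another locus, against 17.1% of the genes tested, and 2 were also called between replicates of a line.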
